A study of Mus musculus with 28 samples.

Results

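DNA copy number was compared between thymic lymphomas of mice with dimeric p53 and thymic lymphomas of mice with monomeric p53, 7 tumours of each. These 14 tumours were chosen by genotype and tissue label out of 28 samples in the series, of which 24 are tumours (10 of them sarcomas) and the others are ear samples with no segment table. The dimeric group is labelled p53 AD/- and the monomeric group p53 RP/-. Both groups carry the mutant allele in the germline opposite a null allele, so neither has a wild-type copy, and both are 50% BALB/C and 50% C57BL6 by strain. Tumours were taken at end point, each from an animal with its own number, and sex and age are not given in the labels. AD tumour 1 and RP tumour 4 came from animals whose ear was also sequenced. The question, from the series' design text, is how genomic alterations compare between the 2 forms of p53. No group with wild-type p53 or with p53 null on both alleles is part of the comparison.

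The p53 protein, encoded by Trp53, is a transcription factor that works as a tetramer: 2 dimers join to bind DNA and to switch on genes for cell cycle arrest and cell death. A mutant that stops at the dimer or at the monomer loses much or all of that activity. Mouse thymic lymphomas are T-cell tumours, the typical early tumour of mice that lack p53, and they are known for gains and losses of whole chromosomes. T cells also delete parts of their own receptor genes on purpose, when they join receptor gene segments.

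Each value is a log2 copy ratio: 0 is the middle of that tumour's own autosomes, positive values are gains and negative values losses. Copy number was measured by exome sequencing, at capture targets (markers) that were grouped into segments of equal copy number. Each tumour was centred on its own length-weighted autosomal median, which moved the values up by 0.01 to 0.25. A segment was called gained at 0.3 or above and lost at -0.3 or below, amplified at 1 or above and deeply lost at -1 or below. DNA of normal cells in a tumour pulls every value towards 0, and how much of it each tumour held is not known. Tumours had 106 to 517 segments. Autosomal markers numbered 204845 to 204849 in AD and 204917 to 204922 in RP tumours. The totals of the genotypes do not overlap, so genotype and any separate processing, or a different comparison DNA, cannot be told apart. Read depth is unknown.

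The strongest focal gains touched Mycn and Akt1 on chromosome 12. The promoter-side sequences of these genes are shown because both genes were amplified in the same 2 AD tumours and in 0 RP tumours. They are the 250 bases before each annotated start (RefSeq, GRCm38.p6), on the minus strand at chr12:12941837-12942086 for Mycn and chr12:112674885-112675134 for Akt1. The Akt1 stretch lies in the amplified segment of both tumours. The Mycn stretch lies in that of AD tumour 5. In AD tumour 6 the last marker of the segment lies inside Mycn, before the stretch. No other segment covers the bases from there to 13000000, so whether that gain takes in the stretch was not measured. Capitals mark CG dinucleotides, 11 in Mycn and 7 in Akt1, and GC content is 54.8% and 52%.
Mycn: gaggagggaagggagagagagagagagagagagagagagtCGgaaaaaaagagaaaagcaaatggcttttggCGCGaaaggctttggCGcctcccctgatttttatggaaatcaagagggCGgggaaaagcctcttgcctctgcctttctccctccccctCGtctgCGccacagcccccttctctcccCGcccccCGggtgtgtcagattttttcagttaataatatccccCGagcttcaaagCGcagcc
Akt1: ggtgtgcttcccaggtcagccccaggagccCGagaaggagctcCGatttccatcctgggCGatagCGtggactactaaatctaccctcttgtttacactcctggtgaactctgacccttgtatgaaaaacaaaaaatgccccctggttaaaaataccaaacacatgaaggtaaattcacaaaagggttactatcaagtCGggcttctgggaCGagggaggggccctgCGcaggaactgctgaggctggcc

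The tumours carried the copy number mark of T cells in both genotypes. Deep losses inside the T-cell receptor alpha and delta locus were found in 7 of 7 AD and 7 of 7 RP tumours, with the deepest segment of each tumour between -4.24 and -2.16 in AD and between -4.48 and -1.93 in RP. The receptor beta locus had a deep loss in 6 of 7 AD and 7 of 7 RP tumours, and the receptor gamma locus in 4 of 7 and 4 of 7. The immunoglobulin heavy chain locus, which immature T cells can also rearrange in part, had a deep loss in 4 AD and 5 RP tumours. The kappa and lambda light chain loci, which B cells rearrange, had none in either genotype. None of these loci had a deep loss in the 10 sarcomas.

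Trp53 itself, at chr11:69580348-69591873, was not lost in any thymic lymphoma. Its log2 copy ratio ran from 0.02 to 0.25 in AD tumours (median 0.17) and from -0.06 to 0.44 in RP tumours (median 0.05). The groups overlap, and the difference of -0.01 ± 0.09 (SE, n = 7 each) lay well within the spread of either group (exact permutation p = 0.897, adjusted p = 0.962). RP tumours 5 and 6 were called gained, at 0.44 and 0.40. In RP tumour 5 the call rests on a short segment of 5 markers, with segments at 0.20 and 0.24 on its sides. A short segment inside the gene, chr11:69586890-69588625 with 5 markers, stood apart in 4 tumours. It was at -0.22 in AD tumour 5 and -0.23 in RP tumour 1, where the segment after it was at 0.28 and 0.22. In RP tumours 5 and 7 it was at 0.75 and 0.81, against 0.24 and -0.05 after it. AD tumour 7 had an 8-marker segment over this stretch at 0.05, against 0.53 after it. With segments under 10 markers taken out, the AD minus RP difference turned to 0.12 (exact permutation p = 0.245). The 2 engineered alleles are not described in enough detail in the labels to say what a capture over this stretch should show.

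AD and RP thymic lymphomas leaned the same way on several chromosomes, not always far enough to be called gained or lost. Chromosome 4 was the most often gained, with a mean of 0.32 ± 0.18 (SD, n = 7) in AD and 0.43 ± 0.16 (SD, n = 7) in RP tumours, and it was above 0 in 14 of 14 tumours. Chromosomes 5 and 15, the second of which holds Myc, were each above 0 in 13 of 14. Chromosomes 6, 13 and 19 were each below 0 in 13 of 14 tumours. Chromosome 13 had a mean of -0.33 ± 0.24 (SD, n = 7) in AD and -0.24 ± 0.17 (SD, n = 7) in RP tumours.

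**Figure D1:**
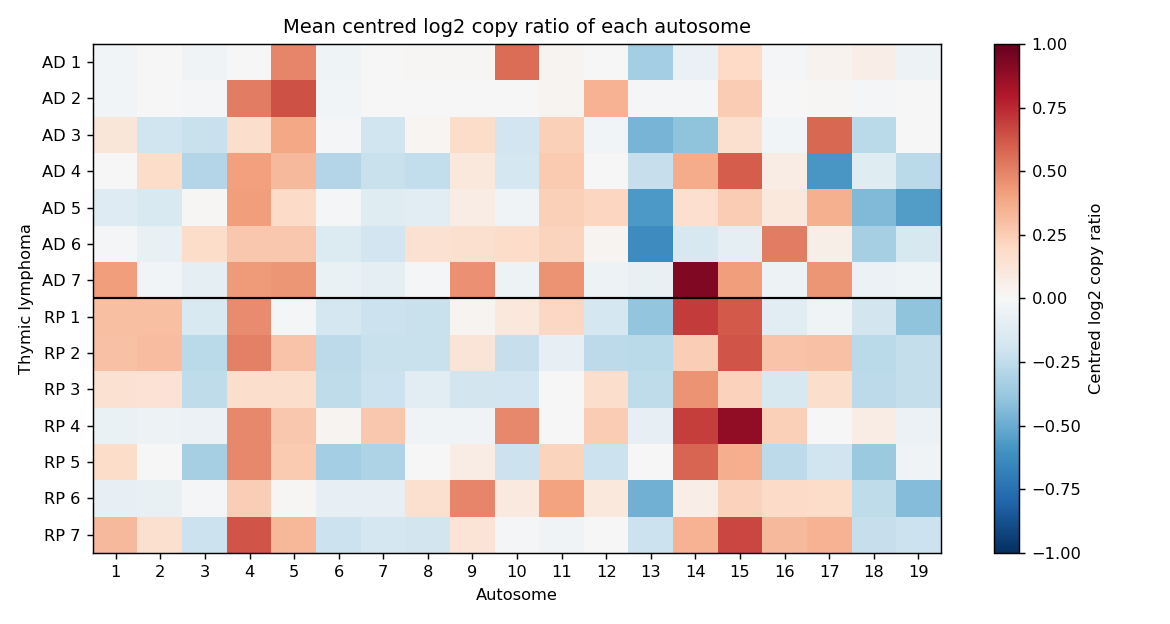
Mean centred log2 copy ratio of each autosome (columns, 1 to 19) in each thymic lymphoma (rows, AD above the line and RP below it), red for gain and blue for loss. Chromosome 4 is red in nearly all rows and chromosome 13 mostly blue, while chromosome 14 is red in all 7 RP rows and ranges from -0.40 to 0.92 in the AD rows.

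No autosome passed the test between the genotypes (0 of 19, 0%, exact permutation test with Benjamini-Hochberg adjustment). Chromosome 5 came closest and was the only one with an unadjusted p under 0.05. Its means were 0.19 at the lowest, 0.39 at the median and 0.63 at the highest in AD tumours, against -0.02, 0.27 and 0.33 in RP tumours. The groups overlap: AD tumours 1, 2, 3 and 7 lie above every RP tumour, and RP tumours 1 and 6 were near 0. The difference was 0.20 ± 0.08 (SE, exact permutation p = 0.0204, adjusted p = 0.388), and with each tumour left out in turn it ran from 0.16 to 0.24. Chromosome 5 was gained over at least 80% of its length in 4 AD tumours and 1 RP tumour. limma gave 0 autosomes after adjustment and 3 at an unadjusted p under 0.05.

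Chromosomes 14 and 15 lay the other way, higher in RP tumours, without passing the test. Chromosome 15 had means of -0.10, 0.25 and 0.61 (lowest, median and highest) in AD tumours and 0.23, 0.62 and 0.88 in RP tumours. It was gained over at least 80% of its length in 2 AD and 5 RP tumours, and the difference was -0.26 ± 0.12 (SE, exact permutation p = 0.0629, adjusted p = 0.402), and -0.25 without centring (exact permutation p = 0.0367). RP tumours 1, 2, 4 and 7 lie above every AD tumour, and AD tumour 6 was the only tumour below 0. Chromosome 14 had means of -0.40, -0.02 and 0.92 in AD and 0.07, 0.45 and 0.70 in RP tumours, a difference of -0.32 ± 0.19 (SE, exact permutation p = 0.108, adjusted p = 0.402). All 7 RP tumours were above 0, whereas the AD tumours spread from the lowest to the highest value of the 14. Without AD tumours 6 and 7 the chromosome 14 difference was -0.43 (exact permutation p = 0.0202). Chromosome 2 had a mean of -0.04 ± 0.13 in AD and 0.11 ± 0.16 in RP tumours (SD, n = 7 each), a difference of -0.15 (exact permutation p = 0.0758).

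**Figure D2:**
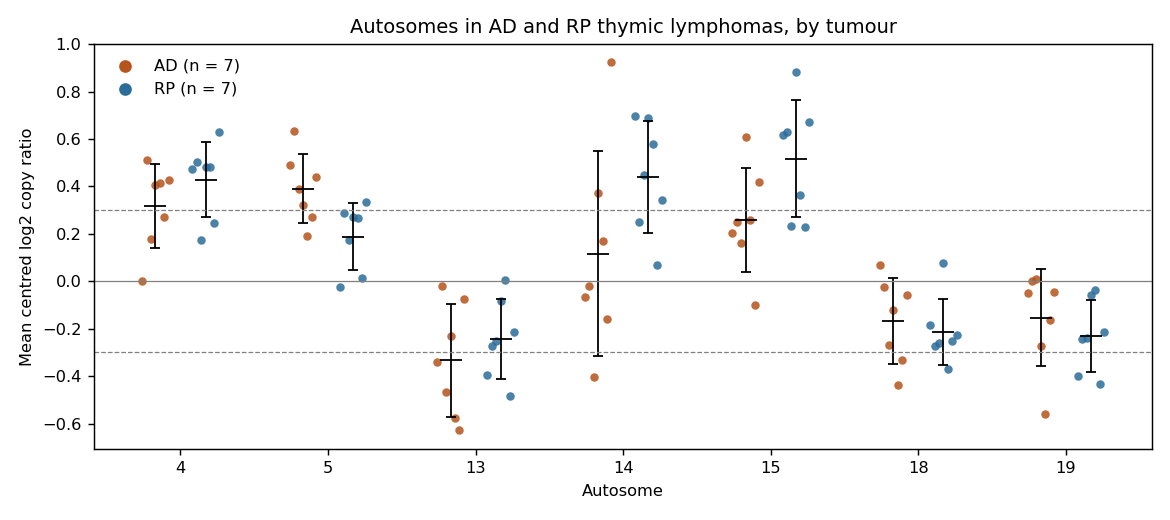
Mean centred log2 copy ratio of 7 selected autosomes, 1 point per tumour, AD in orange and RP in blue, with the mean and SD of each group as a bar (n = 7 each) and dashed lines at the cutoffs of 0.3 and -0.3. On chromosome 5 the AD points sit higher, and on chromosomes 14 and 15 the RP points sit higher, with overlap on each.

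Whether the AD minus RP difference, sign included, was unlike between thymic lymphomas and sarcomas was tested on each autosome. Chromosome 14 differed by -0.32 between AD and RP thymic lymphomas and by 0.14 between AD and RP sarcomas (permutation of genotype within tumour type, p = 0.0257). For chromosome 15 these values were -0.26 and 0.06 (p = 0.0398 by the same permutation test), and for chromosome 2 they were -0.15 and 0.02 (p = 0.0487 by the same permutation test). None passed adjustment over the 19 autosomes (adjusted p = 0.309 for all 3). Chromosome 5 was higher in AD in both tumour types, by 0.20 and 0.10.

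In bins of 1 Mb, 0 of 2390 passed (0%, smallest adjusted p = 0.496, exact permutation test). At an unadjusted p under 0.05, 153 bins (6.4%) were higher in AD tumours and 29 (1.21%) were lower. The higher bins lay mostly on chromosome 5, with 138 of its 147 bins, and 14 more lay on chromosome 6. The lower bins lay on chromosome 15 (19 bins), chromosome 2 (9) and chromosome 14 (1). Bins of 1 chromosome share their segments, so these counts largely repeat the chromosome values. limma gave 0 bins after adjustment and 208 at an unadjusted p under 0.05. With 3432 splits the smallest p is 0.000583, and 28 bins would have to reach it before any bin could pass.

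Of 20480 autosomal protein-coding genes, 0 passed (0%, exact permutation test), 1189 (5.81%) were higher and 170 (0.83%) lower in AD tumours at an unadjusted p under 0.05. Chromosome 5 held 1117 of the 1189. limma gave 0 genes after adjustment and 1535 before it. The 10 genes with the smallest p, 1 per chromosome, all had an adjusted p of 0.506. Dok2, an adaptor that dampens signalling in blood cells, on chromosome 14, ran from -0.46 to 0.43 in AD and from 0.10 to 0.81 in RP tumours (difference -0.50 ± 0.14 SE, exact permutation p = 0.00583). In AD tumour 7 a short segment at -0.30 lay in Dok2 beside 0.99, and without segments under 10 markers the Dok2 difference was -0.34 (exact permutation p = 0.115). Auts2, a gene of neural development on chromosome 5, ran from 0.22 to 0.98 in AD and from 0.01 to 0.36 in RP tumours (difference 0.29 ± 0.11 SE, exact permutation p = 0.00758). Plec, a cytoskeletal linker gene on chromosome 15, differed by -0.27, Mfap1a, a splicing factor gene on chromosome 2, by -0.27, and Ptma, a small nuclear protein gene on chromosome 1, by -0.26. The other 5 were gene models or members of gene families (Gm36327, Sirpb1b, Gm13275, Gm38656 and Gm40864), whose near-identical copies make reads hard to place. Gm40864 on chromosome 12, for example, was called lost in 5 RP tumours, down to -1.64, and in 0 AD tumours.

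Focal amplification of known oncogenes was seen in both genotypes, at different genes. Mycn, a Myc family transcription factor, was at 6.43 in AD tumour 5 and 6.55 in AD tumour 6, and between -0.27 and 0.35 in the other 12 thymic lymphomas. Read as log2 values, these are 86.0 and 93.8 times the middle of each tumour's own autosomes. The 2 segments, chr12:12937005-13633154 (81 markers, with Ddx1 and Nbas) and chr12:12340688-12939609 (12 markers, with Cyria), reach in opposite directions. Between their outermost markers they share 2605 bases, chr12:12937005-12939609, which lie inside Mycn and in no other gene. Segment ends are marker positions, so the gains may reach further and the shared stretch may be longer. The mean difference of Mycn was 1.90 ± 1.19 (SE, n = 7 each, exact permutation p = 0.127), and amplification in 2 AD against 0 RP tumours gave a Fisher's exact p of 0.462.

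The same 2 AD tumours had Akt1 amplified. Akt1, the kinase downstream of PI3 kinase, was at 1.26 in AD tumour 5 and 4.95 in AD tumour 6, and at or below 0.35 in the others. In AD tumour 6 the high segments of chromosome 12 formed a series of separate blocks. Pik3cg, a PI3 kinase subunit gene, was at 2.83, the block with the transcription factor gene Twist1 at 4.85, Gphn at 4.46 and the segment within Setd3 at 4.91, with lower copy number between them. Zeb1, a transcription factor gene on another chromosome, was in a segment at 1.99 in the same tumour. AD tumour 5 had a block on chromosome 9 with the growth factor gene Pdgfd and the protease gene Mmp13 at 3.44, and another there with Zbtb16, a transcription factor gene of innate-like lymphocytes, at 1.95. AD tumour 4 had 3 amplified segments on chromosome 16, from 1.10 to 1.28. Amplified segments of at least 10 markers numbered 0 to 14 per AD tumour and 0 to 4 per RP tumour (difference 2.86, exact permutation p = 0.262). This count is not one of oncogenes. It includes, for example, a chromosome 9 block without a protein-coding gene in RP tumours 1 and 4.

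Amplified oncogenes in RP tumours were Myc and Abl1. Myc was at 1.60 in RP tumour 4, in a 13-marker segment next to others at 1.33 and 0.74, so it was the top of a broad rise. In the other 6 RP tumours it ran from 0.23 to 0.65, and in AD tumours from -0.11 to 0.59 (difference -0.37 ± 0.20 SE, exact permutation p = 0.0501, adjusted p = 0.506). The Myc difference was -0.20 without RP tumour 4, and -0.36 without centring (exact permutation p = 0.0309). Abl1, a tyrosine kinase gene, and its neighbour Nup214, a nuclear pore gene that forms fusions with ABL1 in human T-cell leukaemia, lay in a 142-marker segment at 1.92 in RP tumour 6. That segment begins inside Abl1, where the segment before it is at -0.07, and takes in all of Nup214. Nup214 was between -0.20 and 0.23 in AD tumours and between -0.05 and 0.31 in the other RP tumours (difference -0.42 ± 0.26 SE, exact permutation p = 0.0297, adjusted p = 0.506). Sfxn1, a mitochondrial serine transporter gene, had an 11-marker segment at 2.11 in RP tumour 6 and at 1.07 in RP tumour 5. The ends of that segment were the same in both tumours, chr13:54085459-54106506. The gene was at 0.73, 0.74 and 0.84 in AD tumours 2 and 4 and RP tumour 7. Whether this gain arose in the tumours was not tested. Over all genes, 0 of 20480 (0%) had an unadjusted Fisher's exact p under 0.05 for amplification.

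**Figure D3:**
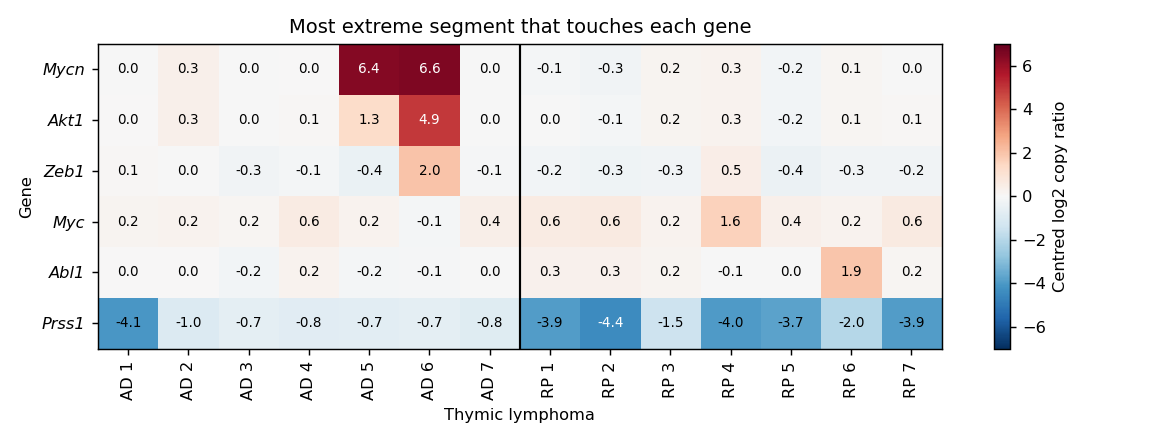
Most extreme centred log2 copy ratio of any segment that touches each of 6 genes (rows) in each thymic lymphoma (columns, AD left of the line and RP right of it), with the value printed in each cell. Mycn and Akt1 are high in AD tumours 5 and 6, Myc in RP tumour 4 and Abl1 in RP tumour 6, while Prss1 is lowest in AD tumour 1 and the RP tumours.

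Short losses set AD tumours 6 and 7 apart. Short losses, up to 10 markers and up to 50 kb in size, numbered 78 in AD tumour 6 and 158 in AD tumour 7. The other AD tumours had 9 to 35 of them, and the RP tumours 10 to 17. In these 2 tumours 51.3% and 57.0% of such losses lay on a promoter window (250 bases before to 50 after a gene start), with a median GC content of 63% and 59.7% in those windows, against 53% over all autosomal promoter windows. In the other AD tumours the share on promoter windows was 8.33% to 28.6%, and in RP tumours 0% to 16.7%. The mean share was 30.0% ± 17.9 in AD and 7.15% ± 6.05 in RP tumours (SD, n = 7 each, exact permutation p = 0.00408, adjusted over 26 measures p = 0.053). The difference of 22.9 points was 13.2 without AD tumours 6 and 7 (exact permutation p = 0.0152). AD tumour 7 had such short losses at the phosphatase gene Ptpn2 (-1.82), the mitochondrial transcription factor gene Tfam (-1.67) and the lipase gene Pnpla2 (-1.28). Each value is that of a short segment among the 158 of this tumour, which need not cover the whole gene. Larger deep losses outside the receptor loci, of at least 10 markers, numbered 0 to 11 per AD and 0 to 3 per RP tumour (exact permutation p = 0.176). AD tumour 7 had 1 at -2.12 over the antiviral gene Trim5 and its neighbours. Its others included histone gene clusters on chromosomes 3 and 13, and Vmn1r (-2.31), Vmn2r, Zscan4 and Pira gene families on chromosome 7. Those of AD tumour 4 included Skint, Vmn2r and H2-Q genes. Those of RP tumour 1 lay mostly over gene models and Serpina1 genes. Reads are hard to place among near-identical copies, and the strains were mixed. Which of these losses arose in the tumours was not tested.

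The genes with the largest difference in deep loss were the trypsinogen genes inside the T-cell receptor beta locus. These digestive enzyme genes lie between the variable segments and the joining segments, so the DNA that holds them is cut out when a T cell joins a variable segment. Prss1 was at -4.08 in AD tumour 1 and between -0.96 and -0.66 in the other 6 AD tumours. In RP tumours it was at -3.92, -4.39, -1.47, -3.97, -3.74, -1.99 and -3.92 in order of tumour number. Apart from AD tumour 1 the groups do not overlap. The difference was 2.09 ± 0.64 (SE, exact permutation p = 0.00758, adjusted p = 0.506), and it ran from 1.92 to 2.56 with each tumour left out in turn. Deep loss in 1 AD against 7 RP tumours gave a Fisher's exact p of 0.00466 (adjusted p = 1). Prss1, Prss2, Prss3, Try4, Try5, Try10, Gm5771 and Gm10334 share 1 segment in each tumour. They are the only 8 of 20480 genes (0.0391%) with an unadjusted p under 0.05 for deep loss.

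The AD tumours without deep loss of the trypsinogen genes did have deep loss next to them. In AD tumours 2, 4, 5, 6 and 7 the following segment was at -3.64, -3.58, -2.05, -1.61 and -2.71. The deep part of the receptor beta locus thus began after the trypsinogen genes in these 5 tumours, and took them in in AD tumour 1 and the 7 RP tumours. AD tumour 3 had no deep loss in the locus, with its lowest segment at -0.69. The share of tumour cells that carry a rearrangement on 1 or both copies cannot be read from these values.

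Genes of 9 lists were examined, with 291 of 295 symbols on autosomes and measured. The median AD minus RP difference of the lists ran from -0.02 to 0.06, against 0.03 over all 20480 genes, and 0 genes passed adjustment in any list. The counts of called members are to be set against the 5.81% higher and 0.83% lower among all genes, and called genes on 1 chromosome share much of their value. Of 22 p53 regulators and family members, 2 were higher in AD at an unadjusted p under 0.05, 0 lower, and the median was -0.02. The 2 were Chek2, a checkpoint kinase that activates p53 (0.49 ± 0.23 in AD, 0.25 ± 0.17 in RP, SD, n = 7 each, exact permutation p = 0.0315), and Rchy1, a p53 ubiquitin ligase (difference 0.17). Both lie on chromosome 5. Ep300, a p53 acetyltransferase on chromosome 15, differed by -0.24 and Hipk2, a p53 kinase, by 0.16, both with overlapping groups. Rpl11, a ribosomal protein that restrains the p53 inhibitor Mdm2, lies on chromosome 4 and was gained in 5 AD and 5 RP tumours.

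Of 30 p53 target genes, 0 were higher and 0 lower at an unadjusted p under 0.05, with a median of 0.02. Rrm2b, a p53-induced ribonucleotide reductase subunit on chromosome 15, was gained in 2 AD and 5 RP tumours (difference -0.31 ± 0.15 SE, exact permutation p = 0.0501). Tnfrsf10b, a death receptor gene on chromosome 14, was gained in 2 AD and 6 RP tumours (difference -0.34 ± 0.20 SE, exact permutation p = 0.112). Sesn2, a stress response gene on chromosome 4, was gained in 5 and 5. The differences of Rrm2b and Tnfrsf10b were close to those of their chromosomes, -0.26 and -0.32.

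Among 44 T-cell lymphoma oncogenes, 2 were higher and 2 lower (Abl1 and Nup214), with a median of 0.03. Both higher ones lie on chromosome 5, among them the cyclin-dependent kinase gene Cdk6, which differed by 0.20 (exact permutation p = 0.0152). Mycl, the Myc family member on chromosome 4, was gained in 5 and 5 tumours. Zmiz1, a Notch1 partner on chromosome 14, was gained in 2 AD and 5 RP tumours, with its highest value in AD tumour 7, in an amplified segment. Of 46 T-cell lymphoma suppressors, 0 were higher and 0 lower, with a median of 0.05. Rb1, the retinoblastoma gene on chromosome 14, was gained rather than lost in 2 AD and 6 RP tumours and lost in 1 AD tumour, at -0.46. Arid1a, a chromatin remodelling gene on chromosome 4, was gained in 5 and 5.

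The remaining lists showed the same chromosomes. Of 34 genome maintenance genes, 2 were higher (Pms2, a mismatch repair gene, and Brca2, both on chromosome 5) and 1 lower (Aurka, a mitotic kinase gene on chromosome 2, difference -0.18). Pms2 ran from 0.25 to 0.98 in AD and from 0.01 to 0.39 in RP tumours (difference 0.25 ± 0.11 SE, exact permutation p = 0.0181). Of 55 lipid and mitochondrial metabolism genes, 5 were higher and 0 lower, with 4 of the 5 on chromosome 5, against 5.81% higher among all genes. Cd36, a fatty acid uptake gene, was the leading one, at 0.33 ± 0.12 in AD and 0.13 ± 0.12 in RP tumours (SD, n = 7 each, exact permutation p = 0.00932, adjusted p = 0.506), and gained in 4 AD and 0 RP tumours. Hadha and Hadhb, the subunit genes of the trifunctional enzyme of fatty acid oxidation, differed by 0.20 each, Ppargc1a, a coactivator of mitochondrial genes, by 0.19, and the kinase gene Pdk4 on chromosome 6 by 0.18. On the other side, Pck2 on chromosome 14 and Dgat1 on chromosome 15, for triglyceride synthesis, differed by -0.33 and -0.24 (exact permutation p = 0.129 and 0.0577).

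Of 35 PI3 kinase, Ras and receptor signalling genes, 3 were higher and 0 lower, with a median of 0.06, against 5.81% higher among all genes. The 3 were the receptor kinase genes Kit, Pdgfra and Kdr, neighbours on chromosome 5 that share 1 value and so are 1 observation (difference 0.17, exact permutation p = 0.0303). Rictor, a subunit of mTOR complex 2 on chromosome 15, differed by -0.24 (exact permutation p = 0.0501), and Mtor on chromosome 4 was gained in 5 and 5. Of 26 cell cycle genes, 1 was higher (Cdk6) and 1 lower (Cdc25b, difference -0.19). Of 22 T-cell identity genes, 0 were higher and 0 lower. Cd3d, a receptor complex gene, and Zbtb7b, the gene of the helper lineage factor, differed by -0.14 and 0.14, near or under the spread between tumours.

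The extent of altered genome did not separate the genotypes, and of 7 measures of burden, breaks and likeness 0 passed adjustment over those 7 (smallest adjusted p = 0.153, exact permutation). Over all 26 measures tested per tumour, technical ones included, 1 passed, the number of autosomal markers (exact permutation, adjusted p = 0.0152). The altered share of the autosomes was 16.0% to 44.0% in AD tumours (median 22.9%) and 5.51% to 37.3% in RP tumours (median 25.3%), a difference of -0.67 points (SE 5.73, exact permutation p = 0.897). Gained regions took 17.9% ± 12.1 and 19.96% ± 10.3 (SD, n = 7 each), and lost regions 7.01% ± 5.17 and 5.57% ± 7.69 (SD, n = 7 each). Changes of whole autosomes numbered 4 ± 1.91 per AD and 4.14 ± 2.12 per RP tumour (SD, n = 7 each, exact permutation p = 1). The lost share changed sign with the cutoff and the centring, so it has no settled direction. The difference in altered share also depended on the cutoff. It was -15.9 points at 0.2 (exact permutation p = 0.113) and 1.72 points at 0.5 (exact permutation p = 0.442).

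The mean number of breaks was higher in AD tumours before adjustment, and a few tumours decided it. Steps of 0.3 or more between neighbouring segments of at least 10 markers numbered 30, 39, 41, 90, 61, 96 and 118 in AD tumours 1 to 7 and 52, 41, 33, 35, 28, 31 and 43 in RP tumours 1 to 7. AD tumours 4 to 7 lie above every RP tumour, and AD tumours 1 to 3 lie within the RP range. The difference was 30.3 ± 13.1 (SE, exact permutation p = 0.0437, adjusted p = 0.153). Without AD tumours 6 and 7, which also held most of the short losses, it was 14.6 (exact permutation p = 0.153). The exact permutation p stayed under 0.05 without AD tumour 1, 2 or 3 or RP tumour 1, and was 0.0577 to 0.0781 without any of the other 10, with differences of 21.9 to 31.4. Altered segments of any length numbered 51 to 320 in AD and 39 to 83 in RP tumours (difference 64.3 ± 36.5 SE, exact permutation p = 0.0758), and 49.4 at a cutoff of 0.5 (exact permutation p = 0.028).

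**Figure D4:**
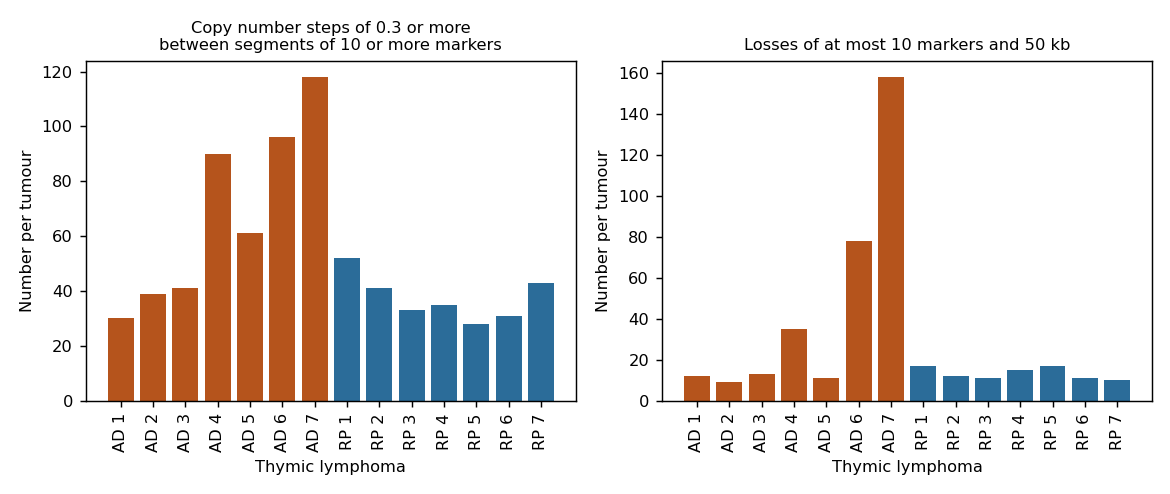
Left, number of copy number steps of at least 0.3 between segments of at least 10 markers in each thymic lymphoma, and right, number of short losses (up to 10 markers and up to 50 kb), with AD tumours in orange and RP tumours in blue. AD tumours 4 to 7 have 61 to 118 steps against 28 to 52 in the RP tumours, and AD tumours 6 and 7 have 78 and 158 short losses.

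RP tumours resembled one another more than AD tumours did before adjustment. The mean Pearson correlation of 1 Mb profiles was 0.57 over the 21 pairs of RP tumours (0.28 to 0.91), 0.33 over the 21 pairs of AD tumours (0.13 to 0.50) and 0.39 over the 49 mixed pairs. These correlations run across bins that share segments and are used as a description of likeness. The difference of -0.24 between the within-AD and within-RP means had an exact permutation p of 0.0239 over splits of the tumours (adjusted p = 0.153). It was -0.15 with Spearman's correlation (exact permutation p = 0.11) and -0.23 without AD tumours 6 and 7 (exact permutation p = 0.0694), and the exact permutation p was 0.0594 without AD tumour 1 and 0.0571 without AD tumour 6. RP tumours 1, 2, 3, 5 and 7 formed the most alike set, with AD tumours 4 and 7 close to it: their mean r with RP tumours was 0.57 and 0.60, above their mean r with other AD tumours, 0.31 for both. RP tumours 4 and 6 were less like the other RP tumours, with mean r of 0.44 and 0.35.

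**Figure D5:**
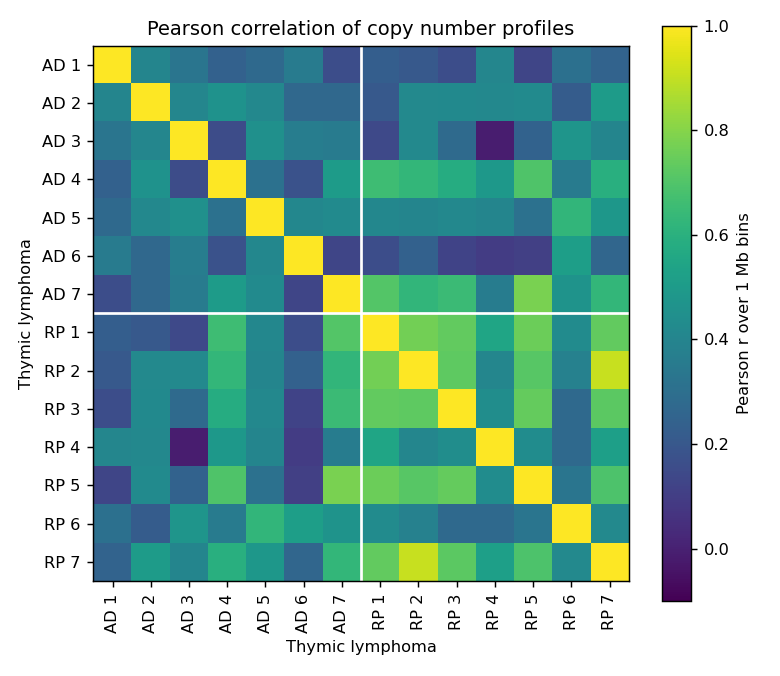
Pearson correlation of 1 Mb copy number profiles between each pair of the 14 thymic lymphomas, with white lines between AD and RP tumours. The RP block at the lower right has the highest values, up to 0.91, and the AD block at the upper left reaches 0.50 at most off the diagonal.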

How the data were processed

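Exome sequencing at a read length of 150 nt was analysed from segment tables of copy number, 1 per tumour. Per the submitters' processing notes, the tools were GATK 4.1.0.0, BWA 0.7.17 and Trim Galore 0.6.5, in roles not given there, and the build was GRCm38. Per the file headers, a segment is described by its position, its marker number and its mean. The deposited segment means were read as log2 copy ratios, and their log base, the comparison DNA, the segmentation settings and any centring or purity correction remain not given in the sources used here. Chromosome X was left out of the autosome, bin and gene comparisons. Its mean was 1 of the 26 measures per tumour, at -0.02 to 1.05 in AD and -0.15 to 2.14 in RP tumours. It did not pass (exact permutation p = 0.0763, adjusted p = 0.226). Here each tumour was centred on its length-weighted autosomal median, in Python 3.11.15 with numpy 2.4.6, pandas 2.3.3 and scipy 1.17.1 (limma 3.58.1 in R 4.3.3 as an alternative). A gene took the overlap-weighted mean of its segments, with RefSeq positions of GRCm38.p6, and 185 genes without a segment were left out. Genotypes were compared by exact permutation over all 3432 splits, two-sided, with Benjamini-Hochberg adjustment over all features. The interaction with tumour type used 100000 resamples, and the tests were checked on simulated data. Tumour numbers follow the order of the samples and pair nothing, and 1 tumour, from its own animal, is 1 replicate.

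The tumours and gene lists were chosen with earlier results of these data known. Named genes were Trp53, listed genes in a segment past 1 or -1, the 3 with the largest difference (1 per chromosome) and the most often altered gene of each list, the 10 genes with the smallest p (1 per chromosome), and genes of segments past 2 or -2 that hold at most 10 genes. Some genes that meet these rules are not reported here. Other genes given as called members of a list, and Zbtb16, were named after their values were seen. Promoter sequences are those of RefSeq.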

Additional observations from a re-analysis of the deposited data

Results flagged for a closer look

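Of 70 groups of 7 tumours examined, 12 held 1 tumour far from the other 6. The rule flags about 1 in 20 groups when values are independent and not selected. Here several measures are linked, and most of the genes were picked from these same data. The count therefore cannot show an excess over chance. Among whole autosomes these were chromosome 7 and chromosome 18 in RP tumour 4, at log2 copy ratios of 0.27 and 0.076, chromosome 9 in AD tumour 7 at 0.46, and chromosome 16 in AD tumour 6 at 0.52. AD tumour 7 stood apart by its gained share of 43.4% of the autosomes, by its 8 autosomes changed as a whole and by its 320 altered segments. RP tumour 5 stood apart by its lost share of 21.3%. Among genes, Akt1 was at 4.95 in AD tumour 6, Prss1 at -4.08 in AD tumour 1 and Auts2 at 0.98 in AD tumour 2. Myc was at 1.60 in RP tumour 4.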

How the results depend on the processing

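Counts of autosomes, bins and genes that passed were 0 under all alternatives run (no centring, marker-weighted centring, segments of at least 10 markers, each tumour left out, AD tumours 6 and 7 left out, limma, and Fisher's exact test for genes, marker-weighted means for autosomes and 5 Mb bins). AD minus RP differences that turned sign were the lost share, at -8.57 points without centring, -4.05 with marker-weighted centring and -9.64 at a cutoff of 0.2, the gained share, at 0.40 points with marker-weighted centring, the altered share, at 1.72 at a cutoff of 0.5, whole autosomes, at 0.14 with 95% of the length required, and Trp53, at 0.12 with segments of at least 10 markers. Results that came under p = 0.05 with an alternative included whole autosomes at a cutoff of 0.2 (-3.71, exact permutation p = 0.0455), the lost share at a cutoff of 0.5 (3.02, p = 0.0315), altered segments at a cutoff of 0.5 (49.4, p = 0.028), chromosome 15 and Myc without centring (-0.25, p = 0.0367 and -0.36, p = 0.0309) and chromosome 14 without AD tumours 6 and 7 (-0.43, p = 0.0202), and, with some single tumours left out, chromosomes 14 and 15, Myc, Mycn and Akt1. No longer past it were steps without AD tumours 6 and 7 (14.6), and the profile likeness without them (-0.23) and with Spearman's correlation (-0.15). With each tumour left out in turn, the differences ran from 21.9 to 36.6 for steps, -0.33 to -0.20 for profile likeness, 32.1 to 77.0 for altered segments, -4.01 to 1.29 for the altered share, -6.37 to 0.70 for the gained share, 0.52 to 4.06 for the lost share, -0.81 to 0.33 for whole autosomes and -0.048 to 0.034 for Trp53, and from 18.4 to 26.5 points for the share of short losses on promoter windows, a check also chosen after seeing the data. Leaving out AD tumour 1, 2 or 5 brought altered segments to an exact permutation p under 0.05. The 8 genes with a deep-loss p under 0.05 were also 8 with segments of at least 10 markers, and 0 interactions passed without centring, both checks chosen after seeing the data. The cause of these changes was not tested. No paired analysis was run, since each tumour came from its own animal and the labels pair none of them. Read depth and the share of normal cells are unknown, and what they limit was not tested.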
